A study of Saccharomyces cerevisiae with 6 samples.

Results

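The chromosome XII genes that lie between the left telomere and the ribosomal DNA were followed here in a wine yeast that lacks KNR4 and in its parent. They were chosen by systematic name, as every listed gene whose name starts with YLL, or with YLR and an open reading frame number up to that of YLR154C, without YLL057C. This gave 225 of the 6388 genes in the authors' tables, 67 on the left arm and 158 on the right arm. The stretch was singled out because its genes stood above 0 in these same ratios, so its overall level is given as a description and is not tested. The position of single genes above or below that common level did not enter the choice, apart from YLL057C, and was tested.

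The study compared EKD-13, a derivative of the industrial Saccharomyces cerevisiae wine strain EC1118 with both copies of KNR4 (also SMI1) deleted, with EC1118 itself as the wild type. Each of 6 two-colour arrays held total RNA of a mutant and a wild-type fermentation in 1 L of synthetic grape-must medium MS300 at 28 °C, sampled after 10 g of released CO2 (mid-exponential phase, 3 arrays) or 70 g (stationary phase, 3 arrays). Cy3 marked the mutant RNA on the second array of a phase, and Cy5 marked it on the others. Mutant vessels 14 and 24 and wild-type vessels 21 and 22 were sampled in both phases, and stationary array 2 was the only one with its RNAs from different fermentation sets. The labels name a single mutant strain, so a change that strain carries beside the deletion cannot be told apart from the effect of the deletion. All values are log2 ratios of mutant over wild type.

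Chromosome XII is the chromosome that carries the tandem rDNA repeats of budding yeast, in its right arm. The genes before it have no shared function: they include pyruvate decarboxylase and ribosomal protein genes, the cell wall protein gene CCW12, the kinase gene HOG1 and subtelomeric families. In yeast a gene's transcript level usually follows its copy number, so a gain of a chromosome moves nearly all its genes by a similar ratio. EC1118 had 2 copies of KNR4 per the labels. A step from 2 copies of a gene to 3 would give a ratio of 1.5, or 0.58 on the log2 scale, and a step from 2 to 4 would give 1 on the log2 scale.

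KNR4 checked the labels: the authors' deposited table listed it at -1.89 in mid-exponential and -1.74 in stationary phase. It had a ratio on mid-exponential array 3 alone, at -4.51. Of 8 haploid-cell markers and 5 sporulation markers, the authors' deposited table called 0 in either phase. Over all genes it called 5.67% higher and 4.63% lower in mid-exponential phase, and 2.04% and 2.14% in stationary phase. With shares that low, 0 calls among so few genes says little on cell type. Of the 225 members, 24 sat in printing wells whose names could not be relied on and 5 others had no ratio, which left 196 with a ratio on at least 1 array. The mid-exponential arrays measured 185 to 191 members and the stationary arrays 144 to 149. A test needed a ratio on 2 arrays of each phase, and 149 members met this. No fit imputed a value.

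The genes before the rDNA stood higher in the mutant on every array. In mid-exponential phase the median over members was 0.63, 0.84 and 0.64 on arrays 1 to 3, a mean of 0.71 ± 0.12 (SD, n = 3 arrays) or 1.63-fold. In stationary phase it was 0.59, 0.45 and 1.02, a mean of 0.69 ± 0.29 (n = 3) or 1.61-fold. Array 3 was the high one in stationary phase and array 2, with the mutant in Cy3, the low one. The medians of the 15 other chromosomes ran from -0.38 to 0.29 over the 6 arrays, and on each array all 15 lay below the median of the stretch.

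Set against the genes of all other chromosomes on the same array, the stretch was higher by 0.67, 0.93 and 0.67 in mid-exponential phase, a mean of 0.76 ± 0.15 (n = 3). In stationary phase the difference was 0.59, 0.53 and 1.03, with a mean of 0.72 ± 0.27 (n = 3). The ratio of a step from 2 copies to 3, 0.58, lay within 1 SD of the stationary mean and more than 1 SD below the mid-exponential one. Stationary array 3 alone reached the ratio of a step from 2 to 4. Stationary minus mid-exponential, the mean level differed by -0.02 (exact permutation test of the array medians, two-sided, p = 0.80, where 3 against 3 arrays cannot give less than 0.10). With arrays brought to one spread it differed by -0.34, from levels of 0.88 and 0.54, at that smallest p of 0.10. Genes beyond the rDNA had medians of 0.65, 0.80 and 0.72 in mid-exponential phase and 0.69, 0.55 and 1.03 in stationary phase. The stretch before the rDNA differed from them by -0.10 to 0.04 on the 6 arrays, less than the arrays differed from each other.

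**Figure D1:**
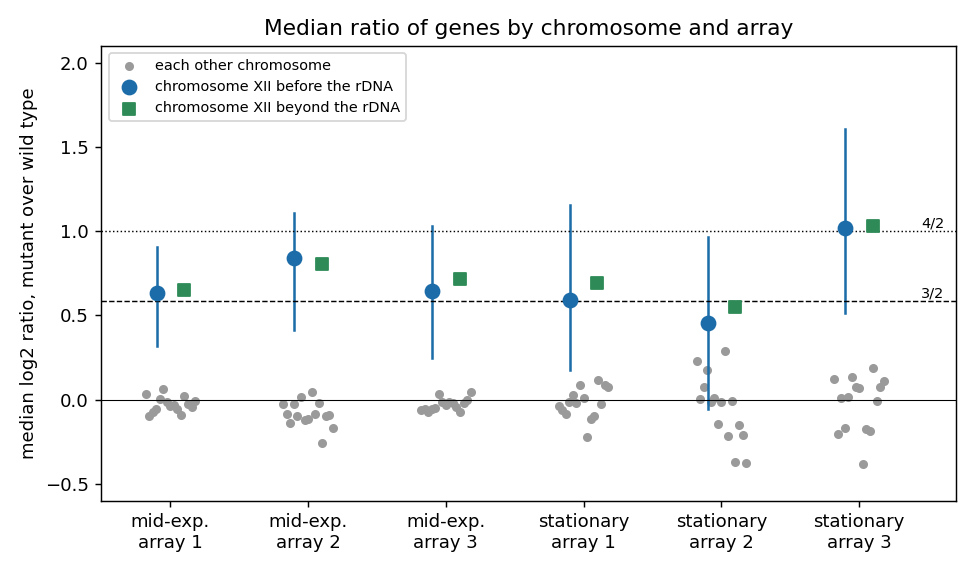
Median log2 ratio of mutant over wild type on each of the 6 arrays for the chromosome XII genes before the rDNA (blue, bars from the first to the third quartile over genes), those beyond it (green) and each of 15 other chromosomes (grey); dashed and dotted lines mark the ratios of 3 and 4 copies over 2. The blue points sit at 0.45 to 1.02 and the grey ones at -0.38 to 0.29.

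The common level was carried by most members and not by a few. Of 180 members with a ratio on all 3 mid-exponential arrays, 139 (77.2%) were above 0 on each of them, against 19.1% of 4788 genes of other chromosomes. In stationary phase it was 70 of 116 members (60.3%), against 15.7% of 2815 genes. Mean ratios in mid-exponential phase had a quartile range of 0.44 to 0.92. Of the members 15 (8.33%) were below 0 and 35 (19.4%) at or above 1, against 56.6% and 1.52% of genes of other chromosomes. In stationary phase the quartile range was 0.32 to 0.98, with 16 members (13.8%) below 0 and 28 (24.1%) at or above 1. Of genes of other chromosomes 57.8% were below 0 and 2.42% at or above 1. Within 0.3 of the log2 ratio of a 1.5-fold gain lay 94 members (52.2%) in mid-exponential and 55 (47.4%) in stationary phase. The share of other genes this close to their own level was not taken, so nothing is read from these 2 counts. The SD over members was 0.51 and 0.67 in the 2 phases, and over genes of other chromosomes 0.45 and 0.60.

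The authors' deposited table gave smaller values, with a median of 0.34 over the 225 members in mid-exponential and 0.21 in stationary phase. It called 104 members higher in mid-exponential phase, where 5.67% of all genes were called higher, and 1 lower, where 4.63% of all genes were. In stationary phase it called 30 members higher, with 2.04% over all genes, and 0 lower, with 2.14%. Members called higher in both phases numbered 24. In the refit against 0, 2 members passed higher in mid-exponential phase (0.163% of all 4289 tested genes) and 25 in stationary phase (2.98%). The choice of the stretch used these ratios, so nothing is read from these counts.

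The size of the shift differed with the brightness of the spots, and was smallest among the brightest. All genes were put in 4 classes by mean intensity. Among the 73 members in the brightest class, the mid-exponential array medians were 0.54, 0.66 and 0.40, with a mean of 0.53 ± 0.13 (n = 3). Their stationary medians were 0.40, 0.34 and 0.71, a mean of 0.48 ± 0.20. Both means lay within 1 SD of 0.58. In mid-exponential phase the means of the other classes, from the dimmest up, were 0.68 ± 0.05, 0.92 ± 0.09 and 0.78 ± 0.14. In stationary phase they were 1.17 ± 0.47, 1.24 ± 0.37 and 0.86 ± 0.35. The authors' deposited table ran the other way, with medians that climbed from 0.13 in the dimmest to 0.47 in the brightest class in mid-exponential phase, and from 0.09 to 0.32 in stationary phase. Both sources were closest among bright members. In stationary phase 17 of the 44 dimmest members had a ratio, so that value rests on a part of them. What sets the gap between the sources among dim genes was not tested.

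**Figure D2:**
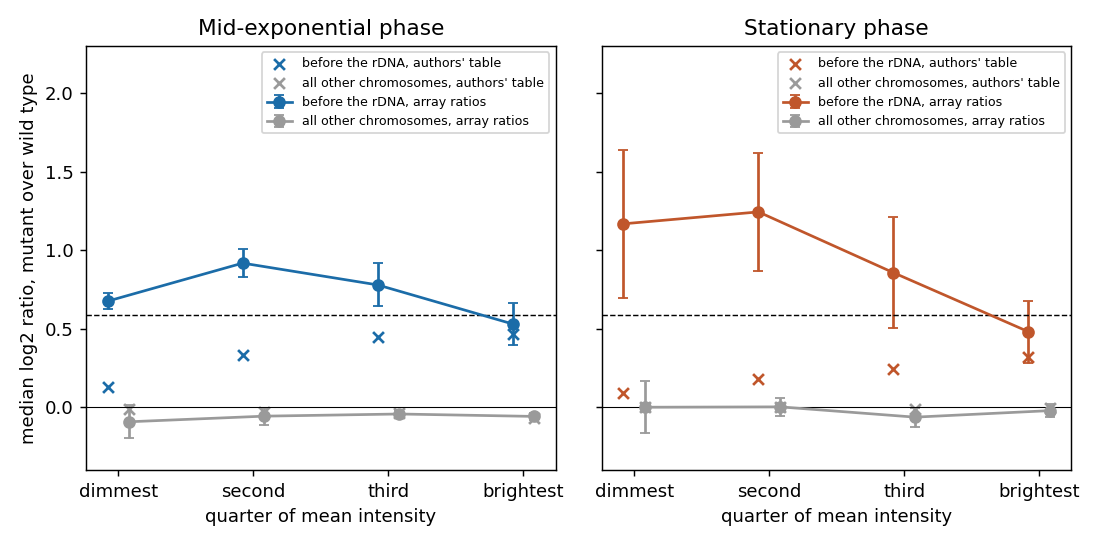
Median log2 ratio by class of mean intensity for members (coloured) and genes of all other chromosomes (grey); circles with bars are the mean ± SD of 3 array medians, crosses the authors' deposited log2 fold changes, and the dashed line is the ratio of 3 copies over 2. The members' 2 sources lie at 0.53 and 0.47 in the brightest class in mid-exponential phase and at 0.68 and 0.13 in the dimmest.

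Along the chromosome the mid-exponential level was uneven, lowest at the left telomere and highest next to the rDNA. The 210 members in the reference annotation were ordered from the telomere and taken in bins of 20. In the first bin, from YLL067C to FPS1, the mid-exponential medians were 0.08, 0.66 and 0.28, a mean of 0.34 ± 0.30 (n = 3). The next 9 bins had means of 0.54 to 1.09. The last bin, 10 genes from RMP1 to RNH203, had medians of 1.18, 1.08 and 1.27, a mean of 1.18 ± 0.09. In stationary phase the first bin stood at 0.37 ± 0.31 and the last at 1.39 ± 0.45, but the bin from APC9 to YPS3 was as low as the first, at 0.36 ± 0.31. The authors' deposited table listed the first bin at 0.09 and the last at 0.56 in mid-exponential phase. In stationary phase it listed them at 0.18 and 0.25, and its highest bins, at 0.33, lay in the middle of the stretch. Bins of the outermost 20 genes at the 30 ends of other chromosomes had means of -0.20 to 0.33 in mid-exponential and -0.49 to 0.50 in stationary phase. Taken the same way, with YLL057C among its genes, the left end of chromosome XII stood at 0.29 and 0.36, inside both ranges.

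**Figure D3:**
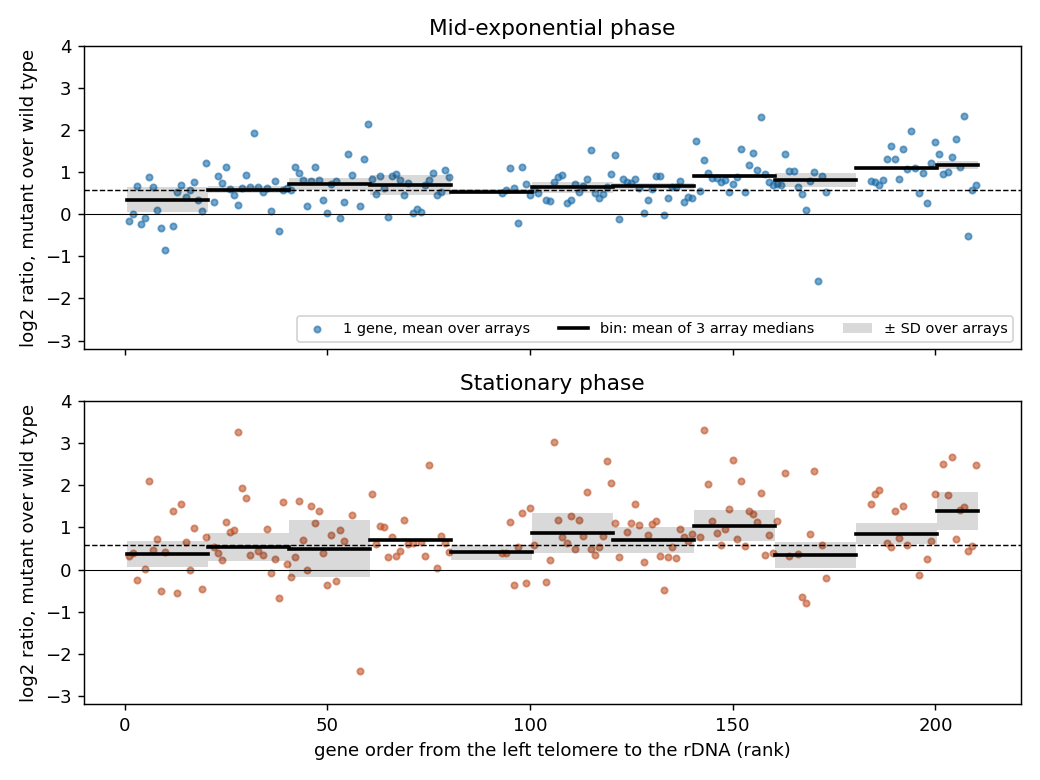
Mean log2 ratio of each member against its rank from the left telomere to the rDNA, with the mean of 3 array medians (black) and ± SD over arrays (grey) in bins of 20 genes, the last of 10. In mid-exponential phase the bins run from 0.34 at the telomere to 1.18 at the rDNA. The dashed line is the ratio of 3 copies over 2.

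The left end holds genes of sulphur compound uptake and use and subtelomeric families, and 16 of the 19 measured genes of its first bin were below the common level in mid-exponential phase. YCT1, a cysteine transporter, had 0.05, -0.77 and -1.81 on the mid-exponential arrays and was the member that the authors' deposited table called lower, at -0.75. Its stationary values were 0.21, -0.09 and 1.12. YLL056C, its neighbour, had -0.28, 0.00 and -0.73 in mid-exponential phase. MHT1, the S-methylmethionine-homocysteine methyltransferase gene, was near 0 throughout, at -0.17, 0.09 and -0.17 in mid-exponential and -0.25, 0.15 and 0.12 in stationary phase. The gap from MHT1 to the common level was -0.79 ± 0.17 (SE) in mid-exponential phase (limma adjusted p = 0.159).

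Other genes of the same stretch did share the shift. MMP1, the S-methylmethionine permease gene next to MHT1, had 1.34, 0.66 and 0.68 in mid-exponential phase, and GTT2, a glutathione transferase gene, had 0.62, 1.03 and 0.31. YLL067C and YLL066C, open reading frames of the repeated subtelomeric Y' elements, had -0.28, 0.11 and -0.29, and 0.04, 0.06 and -0.07. Near-identical copies on other chromosome ends can bind the same spots. YLL057C (JLP1), a sulphonate dioxygenase gene left out of the members, lies in the same group, at -3.32, -4.13 and -4.14 in mid-exponential phase and at 0.04 and 0.85 on stationary arrays 1 and 3. It was below every member on each mid-exponential array, so the members' lower range is cut short by the choice.

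At the right-hand end the last genes before the rDNA were mixed. STM1, which encodes a ribosome-bound protein, had 0.76, 1.01 and 1.57 in mid-exponential and 1.16, 1.10 and 1.98 in stationary phase. PCD1, a Nudix pyrophosphatase gene, had the highest mid-exponential mean of the tested members, with 1.82, 2.17 and 3.04, and YLR152C beside it had -1.07, -0.44 and -0.05. ACS2, the acetyl-CoA synthetase gene, had 1.06, 0.50 and 0.19, and RNH203, a ribonuclease H2 subunit gene and the last in order, had 1.18, 0.78 and 0.10. Just past the rDNA, ASP3-1, YLR156W and ASP3-2 had no ratio on any array, and the authors' deposited table listed them at -0.09, 0.01 and 0.18 in mid-exponential phase. The next, YLR157C-B and YLR157C-A, had means of -0.0045 and -0.06 in mid-exponential and 0.51 and 0.86 in stationary phase. The ASP3 genes are near-identical copies and the YLR157C-B and YLR157C-A reading frames belong to a Ty element, so copies elsewhere can bind their spots. YLR154W-A, which carries the last number of the stretch but is not in the reference order, had -0.14 and 4.16 on 2 mid-exponential arrays.

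Single genes were then tested against the common level, after subtraction of the members' median on each array. Other genes, those beyond the rDNA included, had nothing subtracted in that fit. The shares over all genes in this paragraph therefore rest mainly on tests against 0. In mid-exponential phase 0 of 149 members passed above or below it (limma, Benjamini-Hochberg adjusted p under 0.05 over 4289 genes, lowest 0.133; in the same fit 0.117% of all genes passed above and 0.0466% below). At an unadjusted p under 0.05, 13 members were above, where 6.53% of all genes were above, and 15 below, where 5.74% were. The members' shares were 8.72% above and 10.1% below. In stationary phase 11 members passed, 8 above and 3 below, where 2.45% of all tested genes passed above and 1.8% below. The members' own shares were 5.37% above and 2.01% below, and the share below was near that of all genes. Of these 11, 7 had a ratio on all 3 stationary arrays and 4 were dimmer than the median gene. The calls hang on few arrays: 0 passed without any single mid-exponential array or without stationary array 1, 2 without stationary array 3 (LCL2 and REX2) and 13 without stationary array 2. With arrays brought to one spread 0 passed, where 4 did in mid-exponential phase, and with a dye term 3 did. The fit shared 1 spread per gene over both phases, so its SE and p-values do not measure the stationary spread alone. The SD over genes of other chromosomes was 0.56 to 0.86 on the mid-exponential arrays and 0.91 to 1.10 on the stationary ones.

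More members than these kept to 1 side of the common level on every array of a phase. In mid-exponential phase 46 of 180 were above it on 3 of 3 arrays and 45 below, where 23.6% and 23.3% of genes of other chromosomes were on 1 side of their own median in the same way. The members' shares, 25.6% and 25%, were near these. In stationary phase 20 of 116 were above (17.2%, against 17.5%) and 31 below (26.7%, against 19%).

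NYV1 and LCL2 stood above the common level in both phases and in both sources. NYV1, the vacuolar v-SNARE gene, had 1.81, 1.46 and 1.41 in mid-exponential and 1.95, 2.32 and 2.05 in stationary phase, above the stretch's median on each of the 6 arrays. In stationary phase it rose above the common level by 1.42 ± 0.21 (SE, limma adjusted p = 0.032). LCL2, a gene named for long chronological lifespan, had 1.34, 1.31 and 1.61, then 2.53, 2.20 and 2.18, and rose above the level by 1.62 ± 0.21 in stationary phase (adjusted p = 0.029). In mid-exponential phase neither passed against the level (limma adjusted p = 0.193 for NYV1 and 0.229 for LCL2). The authors' deposited table listed NYV1 at 0.87 and 1.25 and LCL2 at 0.66 and 0.77, beside member medians of 0.34 and 0.21. It called both in each phase, but its calls are against 0 and not against the common level.

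Like NYV1 and LCL2, the other 6 that rose above the level in stationary phase were larger on the arrays than in the authors' deposited table. GEP5 was in the dimmest class of intensity, and RAX2, REX2 and ARP6 in the second. STU2, YLR111W and LCL2 were in the third, and NYV1 in the brightest. The members' stationary means by class were 1.17, 1.24, 0.86 and 0.48, beside a common level of 0.69. Distance from the level of a gene's own class was not tested. RAX2, needed for bud site selection, had 3.10, 2.22 and 4.63 in stationary phase, 2.63 ± 0.35 above the level (adjusted p = 0.032), and was listed by the authors' deposited table at 0.41 and not called. YLR111W, a dubious reading frame, had 2.85, 1.59 and 2.58 (1.65 above, adjusted p = 0.032), listed at 0.47 in the authors' deposited table. STU2, a microtubule-binding protein gene, had 3.72 and 2.35 on the 2 arrays that measured it (2.51 above, adjusted p = 0.035), and REX2, an RNA exonuclease gene, 2.20 and 1.92 (1.54 above, adjusted p = 0.033). ARP6, an actin-related subunit of the SWR1 chromatin remodeller, had 1.77 and 2.31 on arrays 1 and 3 (1.24 above, adjusted p = 0.036). GEP5, a mitochondrial genome maintenance gene, had 3.05 and 2.15 on arrays 1 and 2 (2.08 above, adjusted p = 0.046). The authors' deposited table called STU2 higher at 0.36, and listed REX2 at 0.23, ARP6 at 0.41 and GEP5 at 0.26 without a call.

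The 3 members that fell below the common level in stationary phase were TRX1, PAU23 and YLR108C. TRX1, the cytosolic thioredoxin gene, had 0.25, 0.54 and 0.24 in mid-exponential phase and -0.20, -0.62 and -0.09 in stationary phase, 0.99 ± 0.15 (SE) under the level (adjusted p = 0.032). Its paralogue TRX2 on chromosome VII had -0.75, -0.82 and -0.72 in stationary phase. PAU23, of the seripauperin family of anaerobic cell wall mannoproteins, went from 1.06, 0.63 and 0.50 to -0.33, -0.39 and -0.20, 0.99 ± 0.19 under the level (adjusted p = 0.043). Near-identical relatives on other chromosomes can bind its spots. YLR108C had -0.43, -1.34 and -0.18 in stationary phase (adjusted p = 0.048). These 3 were below 0 on all 3 stationary arrays, and the authors' deposited table listed them at -0.29, -0.20 and -0.27 without a call. All 3 were in the brightest class of intensity, where the members' stationary mean was 0.48, beside a common level of 0.69.

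**Figure D4:**
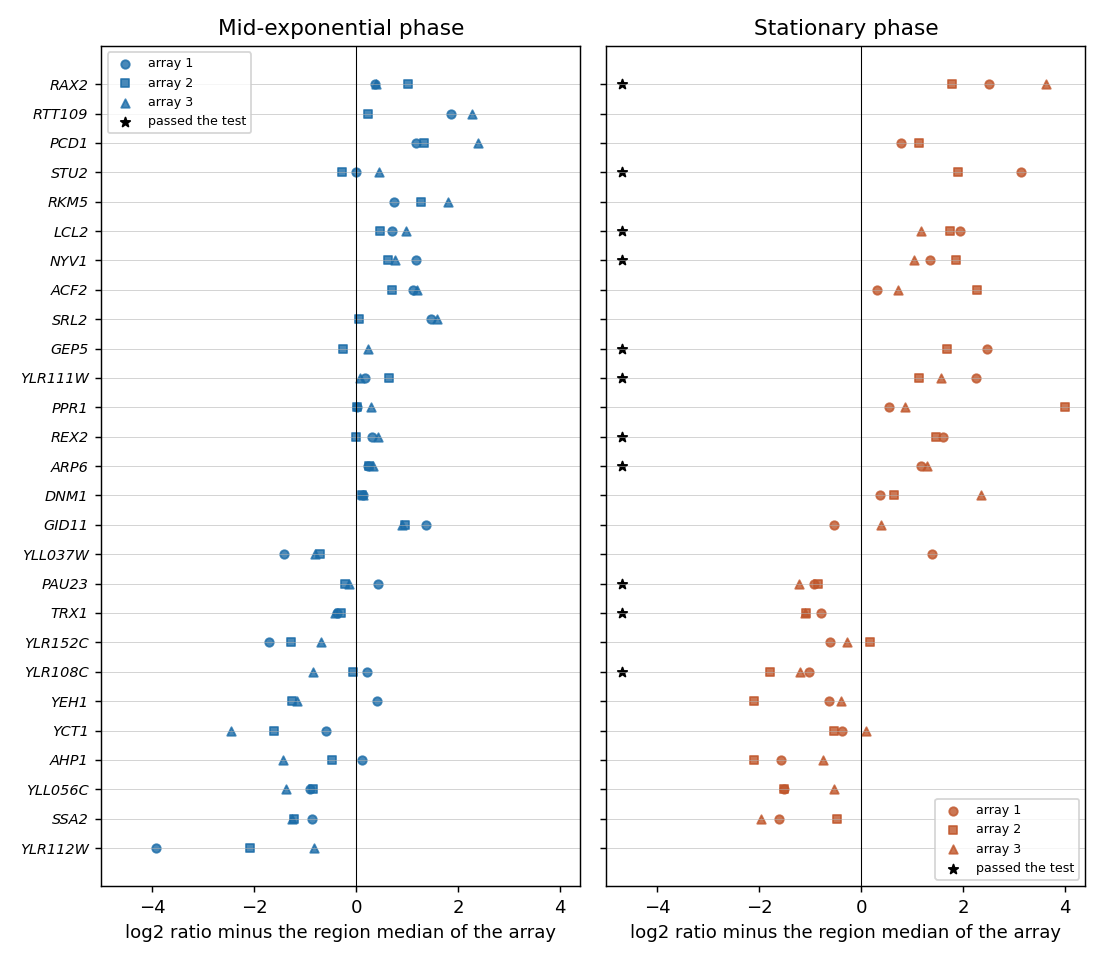
Log2 ratio minus the members' median of the same array for the members furthest from the common level, with 1 symbol per array (circle, square and triangle for arrays 1 to 3). Stars mark the 11 members that passed the limma test in stationary phase; 0 passed in mid-exponential phase. Genes at the top stand above the level and those at the bottom below it.

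The mid-exponential extremes that did not pass, or were not tested, are given as values. Beside PCD1, the highest means among members with 3 ratios were those of RTT109, a histone acetyltransferase gene, with 2.49, 1.07 and 2.91, and RKM5, with 1.38, 2.11 and 2.45. GID11, a subunit gene of the GID ubiquitin ligase, came next with 2.01, 1.81 and 1.54. SRL2 had 2.11, 0.90 and 2.24, and ACF2, an endo-beta-1,3-glucanase gene, 1.74, 1.54 and 1.84. The lowest was YLR112W, a dubious frame, at -3.30, -1.25 and -0.19. RTT109, SRL2, RKM5 and YLR112W had no stationary ratio at all and so were not tested. All were in the dimmest class, and the authors' deposited table listed them at 0.28, 0.23, 0.34 and -0.12 in mid-exponential phase. In stationary phase the highest distances that did not pass included those of PPR1, the activator of pyrimidine synthesis genes, at 1.13, 4.44 and 1.87, and DNM1, a mitochondrial fission gene, at 0.95, 1.10 and 3.38. In each of them 1 array stood far above the others.

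By role, the cell wall and stress signalling genes were, among lists of more than 2 genes, those that the authors' deposited table called most often in mid-exponential phase, with 10 of 11 higher. In stationary phase it called 3 of them. These calls are against 0, and the choice of the stretch used such ratios. The lists were drawn up with earlier results known, so nothing is read from this order. Over all 225 members that table called 46.2% higher in mid-exponential and 13.3% in stationary phase, against 5.67% and 2.04% of all genes, and the counts by role below stand beside these shares. YPS1, an aspartyl protease gene of the cell surface known as a target of the cell wall integrity pathway, was the highest member in the authors' deposited table at 1.47 (adjusted p = 5.8e-05), and stood at 0.74 in stationary phase. Its array ratios were not used, since its well is among the unreliable ones, and the same holds for its neighbour YPS3, listed at 0.91. CCW12, a major cell wall mannoprotein gene, had 0.69, 0.83 and 0.84 in mid-exponential and 0.48, 0.61 and 1.44 in stationary phase. HOG1, the kinase of the osmotic stress pathway, had 0.88, 0.86 and 1.02, and FPS1, the glycerol channel gene, 1.21, 1.35 and 1.08, in mid-exponential phase. The list's median over 9 measured genes was 0.89, beside 0.70 for all members, and 7 of the 9 lay above the common level; in stationary phase it was 0.58, beside 0.73, and 4 of 9 lay above. None of its 7 tested genes passed against the common level in either phase.

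Ribosomal protein genes had the lowest mid-exponential list median, 0.17 over 4 measured genes, and all 4 lay under the common level in both phases. RPL22A had -0.19, -0.22 and 0.08 in mid-exponential phase and RPS0B 0.29, 0.43 and 0.05, while RPL10 had 0.17, 0.79 and 0.99. None of the 4 passed the test. RPL8B changed sign with the dye, at -0.47, 0.83 and -0.11 in mid-exponential and -1.81, 2.20 and -1.80 in stationary phase. The 120 ribosomal protein genes of other chromosomes had a median of -0.04 in mid-exponential and 0.12 in stationary phase. Paralogues can bind the same spots: RPS0A, on chromosome VII, had 0.35, 0.41 and 0.24 in mid-exponential phase.

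**Figure D5:**
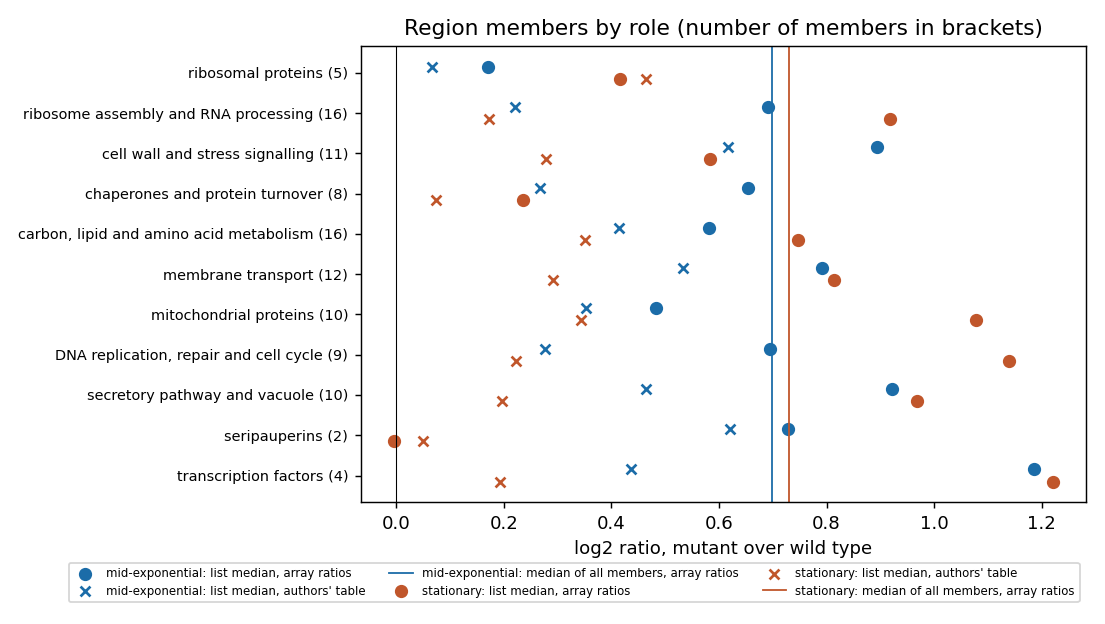
Median log2 ratio of members by role in mid-exponential (blue) and stationary phase (orange), with circles for array ratios and crosses for the authors' deposited table; vertical lines mark the median of all measured members. Ribosomal proteins lie lowest in mid-exponential phase, at 0.17, and the 2 listed seripauperins, PAU17 and PAU18, in stationary phase, at -0.0044.

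Chaperone and protein turnover genes had a median of 0.65 in mid-exponential and 0.24 in stationary phase over 7 measured genes. SSA2, a constitutive cytosolic Hsp70 gene, was below 0 on all 6 arrays, at -0.23, -0.37 and -0.61, then -1.03, -0.02 and -0.96. It stood under the common level by 1.11 in mid-exponential (limma adjusted p = 0.209) and by 1.36 in stationary phase (adjusted p = 0.064), so it did not pass. SSA1, its relative on chromosome I, had 0.06, -0.01 and -0.34, then -0.51, 0.40 and -0.87. HSP104, the disaggregase gene, had -0.09, 0.40 and -0.04, then -0.43, 0.45 and -0.29, so that array 2, with the mutant in Cy3, was the high one in both phases. HSP104 and RPL8B were the 2 of 115 members measured on 6 arrays whose array 2 opposed the other arrays in both phases. AHP1, a peroxiredoxin gene, had 0.74, 0.36 and -0.79, then -0.98, -1.66 and 0.28. UBI4, the polyubiquitin gene, had 0.54, 1.19 and 0.52, near the common level, then 0.40, -0.07 and 0.38.

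Metabolic genes had a median of 0.58 over 13 measured genes in mid-exponential phase and 0.75 in stationary phase. PDC5, a minor pyruvate decarboxylase gene, had 0.85, 0.79 and 0.89, then 0.46, 0.72 and 1.06. The authors' deposited table listed it at 1.10 and 0.73. PDC1, the main pyruvate decarboxylase gene and itself a member, had 0.62, 0.41 and -0.09, then 0.11, 0.01 and 0.60. CKI1, the choline kinase gene, had 1.51, 1.23 and 1.21 in mid-exponential phase. YEH1, a steryl ester hydrolase gene, had 1.04, -0.42 and -0.52, then -0.04, -1.64 and 0.61. The authors' deposited table called 9 of the 16 metabolic genes higher in mid-exponential and 5 in stationary phase, beside 46.2% and 13.3% of all members.

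Transport genes had medians of 0.79 and 0.81, and the authors' deposited table called 8 of 12 higher, beside 46.2% of all members and 5.67% of all genes, and YCT1 lower, beside 4.63% of all genes, in mid-exponential phase. YBT1, a bile acid transporter gene of the vacuole, had 0.50, 1.04 and 0.78, then 0.92, 0.72 and 1.34. ZRT2, a zinc transporter gene, had 0.74, 0.75 and 0.94, and NHA1, a sodium-proton antiporter gene, 0.89, 1.00 and 1.38, in mid-exponential phase, and neither had a stationary ratio. Mitochondrial protein genes had a median of 0.48 in mid-exponential and 1.08 in stationary phase over 10 measured genes. COX17, a copper chaperone gene, had -0.22, 0.12 and -0.18, then 1.07, 0.26 and 1.46; SDH2, the iron-sulphur subunit gene of succinate dehydrogenase, had 0.23, 0.38 and 0.29 in mid-exponential phase.

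Genes of the secretory pathway and vacuole had medians of 0.92 and 0.97 over 7 measured genes. Of its 6 tested genes 2 passed above the level in stationary phase, NYV1 and RAX2, and 1 below, TRX1. Over all tested genes 2.45% passed above and 1.8% below in that phase. RAX2 and TRX1 were described above by other roles, so the count depends on how the list was drawn, and nothing is read from it. BOS1, a v-SNARE gene of transport to the Golgi, had 0.64, 0.88 and 0.84, then 0.67, 1.23 and 1.00. In DNA replication, repair and cell cycle the medians were 0.69 over 9 and 1.14 over 6 genes, and STU2 was the 1 that passed. SLX4, a structure-specific endonuclease subunit gene, had 1.09, 1.91 and 1.68, then 1.09, 1.42 and 2.01, above the common level on each array, and the authors' deposited table called it at 1.10 and 0.83. It did not pass against the common level (limma adjusted p = 0.175 and 0.079).

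Ribosome assembly and RNA processing genes lay at the common level in mid-exponential phase, with a median of 0.69 over 13 measured genes and 13 of 13 above 0. RIX7, an ATPase gene of ribosome export, had the lowest mean there, with 0.61, -0.44 and 0.52, and BUD20, another ribosome assembly gene, had 0.32, 0.40 and 0.44. The 4 transcription factor genes, among them CHA4, at 2.28 and 2.34 on 2 arrays, were all above the level in mid-exponential phase. Of the 2 listed seripauperins PAU17 had 1.13, 0.87 and 0.37, then 0.53, -0.21 and 0.40, and PAU18 0.40, 1.20 and 0.40, then -0.62, 0.22 and -0.34. Their near-identical relatives on other chromosomes can bind these spots. PAU23 was not on this list. None of the 149 members differed between phases in its distance from the common level (limma, lowest adjusted p = 0.175; 0.0466% of all genes passed higher and 0.0699% lower). At an unadjusted p under 0.05, 14 members were higher and 8 lower in stationary phase, where 7.11% and 5.81% of all genes were. The members' distances from the common level correlated at r = 0.56 between the phase means over 115 members, which share arrays' vessels and spot wells.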

How the data were processed

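Ratios are log2 values per spot and array that the authors deposited, made with R 2.9.2 and limma per the submitters' processing notes; how spots were corrected, normalized and filtered is not stated in the labels. For each phase the authors deposited, by its header, a limma table with log2 fold change, mean log2 intensity, t score, p-value and adjusted p-value, and a linear fold change (ratio) for stationary phase. The authors' lists of changed genes were checked and hold the genes whose adjusted p-value there is below 0.05.

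Both spots of a well were averaged, and wells were named through the mid-exponential table. Row E of plates 10 to 19 was left out (228 genes), because well names there resemble numbers and their ratios correlated weakly with the authors' fold changes (r = 0.31, against 0.72 for other wells, in mid-exponential phase). Symbols and gene order came from RefSeq R64, which held 210 of the 225 members; no coordinates were used.

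A limma 3.58.1 model (R 4.3.3) with a mean per phase was fitted to all 6 arrays, with 4 residual and 2.27 prior degrees of freedom and two-sided Benjamini-Hochberg tests. Python 3.11.15, pandas 2.3.3, numpy 2.4.6, scipy 1.17.1 and matplotlib 3.10.9 made tables and plots. The fit was tested on simulated data. An SD is over arrays unless named as over genes or members. An SE is the model's, from 1 spread per gene shared by both phases, and 3 arrays a phase limit the precision.

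Members and lists were chosen with earlier results of these data known. Named genes were those past the threshold, the 6 furthest on each side with 1 sign on 3 arrays, the 5 highest and lowest in the authors' tables, each list's extremes and the genes at the ends; others named are further list members, neighbours or paralogues chosen after their values were seen. Arrays of the 2 phases that share a vessel deviated together weakly (r = 0.08, 0.21 and -0.05 over 3020 genes), so they were not paired. Alternatives were another spread and centre of arrays, brighter genes, genes on 6 arrays, all wells, a dye term, a block and each array left out. The values of 1 listed gene are not reported here.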

Additional observations from a re-analysis of the deposited data

Results flagged for a closer look

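In 3 members every array of 1 phase had the opposite sign to every array of the other. The share of all genes with that pattern was not taken, so nothing is read from the count. The difference between phases was not tested by the sign pattern, and none of the 3 passed the limma test of the phase difference. PAU23 was above 0 on the 3 mid-exponential arrays and below 0 on the 3 stationary ones, with a stationary minus mid-exponential difference of -1.03. TRX1 did the same with a difference of -0.65. THI73, a putative transporter gene, was below 0 on the 3 mid-exponential arrays and above 0 on the 3 stationary ones, with a difference of 0.38.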

How the results depend on the processing

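The shift stayed above 0 under every alternative run. With arrays brought to one spread the levels were 0.88 in mid-exponential and 0.54 in stationary phase; the authors' deposited log2 fold changes gave 0.34 and, in stationary phase, 0.21. Without 1 array the levels ran from 0.64 to 0.74 in mid-exponential and 0.52 to 0.80 in stationary phase. The phase difference of -0.02 became -0.34 with one spread (exact permutation p = 0.10, the smallest possible) and changed sign without mid-exponential replicate 2 (0.05) and stationary replicate 1 (0.03) or 2 (0.10), within a range of -0.19 to 0.10 over the arrays left out; with the replicate block by shared vessel it was -0.02.

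Members off the common level in mid-exponential phase were 4 with arrays brought to one spread (SLX4, THI73, COX17 and MHT1) and 1 with the unreliable wells kept, against 0; without 1 array they were 0. In stationary phase they were 0 with one spread, 6 among genes on 6 arrays and 3 with a dye term (LCL2, RAX2 and STU2), against 11. They were 0 without any 1 mid-exponential array or stationary replicate 1, 2 without stationary replicate 3 and 13 without replicate 2, in fits with fewer arrays. The replicate block changed no call of a phase difference, which stayed at 0.

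Members called against 0 in mid-exponential phase were 37 with one spread, 6 among brighter genes and 4 with all wells, against 2, and 0 to 2 without 1 array. In stationary phase they were 5 with one spread, against 25, and 2 to 37 without 1 array. For the 24 single-gene results, 211 values kept their side of the threshold, 70 lost it, 3 gained it and 0 changed sign. All 70 losses fell among the 11 members that passed in stationary phase. Results that had not passed could not lose it, so the 211 do not show that the calls were stable. Signal over background limits dim genes.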

Other observations

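Among the members that the authors' deposited table listed highest in mid-exponential phase were FRS1, a phenylalanyl-tRNA synthetase subunit gene, at 1.01 and SMF3, a vacuolar iron transporter gene, at 0.94. FRS1 had array ratios of 1.34, 1.64 and 1.27 there. Of all 225 members, 19 were below 0 in mid-exponential and 20 in stationary phase in the authors' deposited table, and 4 were below 0 in both. ADE16, AAT2 and YEH2 are further members without usable array ratios. The authors' deposited table listed them at 0.82, 0.86 and 0.65 in mid-exponential phase. Over the 115 members measured on 6 arrays, 11 stood above the common level on every array and 10 below it on every array. The matching share over genes of other chromosomes was not taken, so nothing is read from these counts.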
